A study of Homo sapiens with 12 samples.

Results

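The STEAP (six-transmembrane epithelial antigen of the prostate) family was examined in LNCaP cells, which respond to androgen and were derived from a lymph node metastasis of prostate cancer. Members were the probes that the platform annotation names STEAP1, STEAP2, STEAP3 or STEAP4: 4 genes of the 20044 named genes and 11 probes of the 47317 probes with a value on every array. STEAP1 had 4 probes, STEAP2 had 3, STEAP3 had 3 and STEAP4 had 1, and they are numbered here from the brightest mean over all arrays. The brightest probe stands for its gene. Total RNA from 12 samples was measured on Illumina bead arrays, 6 from cells given pcDNA3.1 with the FOXA1 cDNA (FoxA1 arrays) and 6 from cells given pcDNA3.1 with GFP (GFP arrays). All cells were grown in RPMI with 10% serum, transfected with Lipofectamine2000 and harvested at 48 h. The labels number the replicates 1 to 6 in each group and do not say whether they were separate cultures; every p-value therefore rests on a spread between samples that could be technical. LNCaP is 1 line, and the transfection was transient, with no share of transfected cells given in the labels.

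STEAP proteins carry a heme-binding six-helix membrane domain, and STEAP2, STEAP3 and STEAP4 add a cytoplasmic domain that takes electrons from NADPH and passes them across the membrane to reduce ferric iron and cupric copper. Reduced iron and copper are the forms that membrane transporters carry into the cytosol. STEAP1, which lacks the NADPH-binding domain, was found as a surface antigen of prostate cancer and is a target of antibody-based therapies. STEAP2 and STEAP4 are also linked to androgen signalling in prostate cells, and FOXA1, a pioneer factor that opens chromatin for the androgen receptor, is the factor on the plasmid compared here.

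Because the plasmid carries a forkhead factor, the letters around the STEAP start sites are shown first. The sequences run 5′ to 3′ from 250 bases before to 50 bases after each RefSeq start of build GRCh38.p14, and all 4 genes matched the promoter table by symbol. The motifs searched on both strands were the forkhead forms TGTTTAC and TATTTAC and the androgen receptor half-site AGAACA, and capitals mark any match. The STEAP1 window lies at chr7:90154219-90154518 on the plus strand, the STEAP2 windows at chr7:90211490-90211789 on the plus strand and chr7:90213570-90213869 on the plus strand, the STEAP3 window at chr2:119223584-119223883 on the plus strand and the STEAP4 window at chr7:88306845-88307144 on the minus strand.
STEAP1: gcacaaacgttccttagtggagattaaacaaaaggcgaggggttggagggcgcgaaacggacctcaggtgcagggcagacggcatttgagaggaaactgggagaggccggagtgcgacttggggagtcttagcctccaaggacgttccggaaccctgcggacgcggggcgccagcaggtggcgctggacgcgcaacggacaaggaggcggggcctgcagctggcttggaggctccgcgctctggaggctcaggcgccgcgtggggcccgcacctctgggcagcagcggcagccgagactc
STEAP2 first start: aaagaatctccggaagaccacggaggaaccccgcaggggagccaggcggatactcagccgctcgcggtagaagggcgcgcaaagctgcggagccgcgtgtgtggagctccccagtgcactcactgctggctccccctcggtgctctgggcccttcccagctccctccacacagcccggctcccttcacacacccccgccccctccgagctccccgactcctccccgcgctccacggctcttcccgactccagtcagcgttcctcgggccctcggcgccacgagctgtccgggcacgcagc
STEAP2 second start: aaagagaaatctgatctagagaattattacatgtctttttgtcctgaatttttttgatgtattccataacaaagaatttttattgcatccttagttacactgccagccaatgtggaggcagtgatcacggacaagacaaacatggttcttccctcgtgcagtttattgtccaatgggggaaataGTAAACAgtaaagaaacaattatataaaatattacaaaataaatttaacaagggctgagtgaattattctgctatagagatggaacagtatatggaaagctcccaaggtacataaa
STEAP3: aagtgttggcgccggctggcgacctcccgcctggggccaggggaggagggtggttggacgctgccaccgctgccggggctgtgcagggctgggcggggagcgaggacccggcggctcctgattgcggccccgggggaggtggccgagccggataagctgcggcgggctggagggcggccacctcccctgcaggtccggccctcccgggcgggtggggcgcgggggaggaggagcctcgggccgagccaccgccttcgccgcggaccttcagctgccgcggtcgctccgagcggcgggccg
STEAP4: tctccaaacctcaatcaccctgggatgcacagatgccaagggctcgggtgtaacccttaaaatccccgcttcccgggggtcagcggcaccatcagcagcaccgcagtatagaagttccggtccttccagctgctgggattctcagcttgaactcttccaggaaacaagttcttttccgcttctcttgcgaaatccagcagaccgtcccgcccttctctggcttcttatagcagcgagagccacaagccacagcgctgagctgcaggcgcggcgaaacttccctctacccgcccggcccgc

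The second STEAP2 window held 1 match, TGTTTAC on the reverse strand, 66 bases before the start, and the other windows held none of the 3 motifs. Of all 35116 promoter windows of this length, 3.42% held TGTTTAC, 2.67% TATTTAC and 14.8% AGAACA. A match is a description of letters and not of a bound site, and the absence of one says nothing about binding elsewhere. The windows also differed in base composition. The second STEAP2 window had 33.7% G and C and 2 CG pairs, while the others ran from 58.7% (STEAP4) to 78.7% (STEAP3) with 18 to 36 CG pairs. STEAP1 and STEAP2 are neighbours on chromosome 7 with 0 protein-coding genes between them in the RefSeq annotation, and STEAP4 lies 2 protein-coding genes away from STEAP1. STEAP3 is on chromosome 2. STEAP1B, a close paralogue of STEAP1 elsewhere on chromosome 7, has a start window that equals that of STEAP1 at 290 of 300 bases, and 0 probes carry its name. The probe sequences were not used here, so it is not known which STEAP1 probes could also read STEAP1B.

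FOXA1, the gene on the plasmid, was already bright in the control cells. Its normalised log2 intensity had a lowest value of 13.01, a median of 13.35 and a highest value of 13.48 on the GFP arrays, and 13.29, 13.41 and 13.62 on the FoxA1 arrays. The groups overlapped, and 2 FoxA1 arrays lay above every GFP array. The groups differed by 0.13 ± 0.09 (SE) (n = 6 against 6, exact permutation p = 0.165). Whether that probe reads the transcript of the plasmid is not known here, since probe positions were not used. The labels are therefore not separated by FOXA1's own probe, and a comparison of the groups compares plasmids rather than measured FOXA1 levels.

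The culture had the defining genes of its label. A listed gene counts as measured, here and below, if a probe of that name passed the filter on dim probes. The others, too dim or without a usable probe, were not told apart. Of 8 luminal markers 6 were measured and all 6 had means above the background estimate, among them KLK3 at 10.34 and FOLH1 at 11.32. Of the measured basal (1 of 5), leukocyte (3 of 7) and erythroid (2 of 4) markers, 0 had a mean above it, and of 8 stromal markers 2 did, ACTA2 at 9.89 and VIM at 9.48. The summed level of the stromal list, as its mean, ran from 7.91 to 8.16 on the FoxA1 arrays and from 7.94 to 8.23 on the GFP arrays. The background estimate, 7.65 on the normalised scale, is the 95th percentile of 784 further probes that only the non-normalized table holds. The share of probes above it ran from 32.8% to 36.4% of an array.

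STEAP1 and STEAP2 were bright on every array, STEAP3 was low, and STEAP4 was not above background on any array. Levels of different probes cannot be set against each other, so each probe is compared only with the background estimate. STEAP1 probe 1 stood 5.28 above that estimate on the log2 scale, STEAP2 probe 1 stood 4.75 above it and STEAP3 probe 1 stood 0.39 above it, each on 12 of 12 arrays. The mean of the STEAP4 probe lay 0.45 under it, at 7.25 in the FoxA1 and 7.15 in the GFP arrays, with 0 of 12 arrays above. In whole cultures, fewer cells with a transcript and less of it per cell cannot be told apart.

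**Figure D1:**
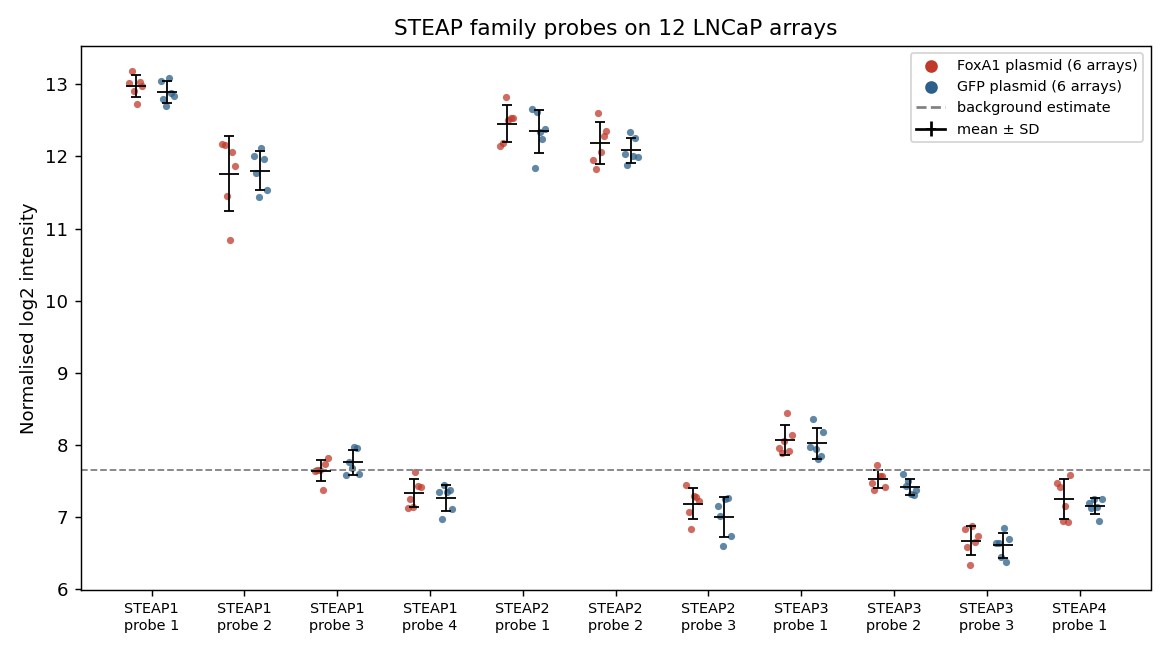
Normalised log2 intensity (y axis) of the 11 STEAP probes (x axis) on the 6 FoxA1 arrays (red) and the 6 GFP arrays (blue); each point is an array, black bars are mean ± SD and the dashed line is the background estimate of 7.65. Both groups overlap for every probe, and 5 probes, 2 of STEAP1, 2 of STEAP2 and 1 of STEAP3, lie above the line on all 12 arrays.

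The probes of a gene did not read it equally. STEAP1 probe 2 was bright as well, at 11.76 ± 0.52 with FoxA1 and 11.80 ± 0.27 with GFP (SD, n = 6 each), whereas STEAP1 probe 3 was above background on 7 of 12 arrays and probe 4 on 0. All 4 are annotated to the same RefSeq transcript. STEAP2 probe 2 was bright, at 12.18 ± 0.29 and 12.08 ± 0.18 (SD, n = 6 each), and STEAP2 probe 3, of the same annotated transcript, was above background on 0 arrays. STEAP3 probe 2 was above it on 1 array, and STEAP3 probe 3, which the annotation pairs with another STEAP3 transcript, on 0 arrays. Values of the probes under the estimate say little about their transcripts.

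STEAP1, the surface antigen without a reductase domain of its own, did not differ between the plasmids beyond the spread between arrays. On the FoxA1 arrays probe 1 ran from 12.73 through a median of 13.00 to 13.19, and on the GFP arrays from 12.70 through 12.86 to 13.09. The groups overlapped over most of their range, with FoxA1 2 alone above every GFP array. The groups differed by 0.08 ± 0.09 (SE), with 95% limits of -0.11 and 0.28 (limma adjusted p = 1.00, exact permutation p = 0.342, n = 6 against 6). An increase above 1.22-fold and a decrease of more than 1.08-fold in intensity lay outside the interval. Probe 2 gave -0.05 ± 0.19 (SE). Its sign turned without FoxA1 4, where that probe stood at 10.84 (0.14), and without FoxA1 3 (0.015) or GFP 4 (0.017), and a mean over the STEAP1 probes past the filter gave -0.025.

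STEAP2, a reductase of iron and copper at the plasma membrane and in vesicles of the Golgi, did not differ beyond the spread either. Probe 1 ran from 12.14 through a median of 12.52 to 12.82 on the FoxA1 arrays and from 11.84 through 12.36 to 12.65 on the GFP arrays. The lowest array of all was GFP 2 and the highest was FoxA1 3. The groups differed by 0.11 ± 0.14 (SE), with 95% limits of -0.19 and 0.41 (limma adjusted p = 1.00, exact permutation p = 0.515, n = 6 against 6), which leaves out an increase above 1.33-fold and a decrease of more than 1.14-fold in intensity. Probe 2 gave nearly the same difference, 0.10 with a standard error of 0.12. Without GFP 2 the difference of probe 1 was 0.006.

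STEAP3, the ferrireductase of endosomes in mouse erythroid precursors and a p53-responsive gene, was low and did not differ. Probe 1 ran from 7.89 through 8.003 to 8.45 on the FoxA1 arrays and from 7.81 through 7.96 to 8.35 on the GFP arrays. Single arrays stood out in both groups, FoxA1 4 at 8.45 and GFP 2 at 8.35, and the rest lay between 7.81 and 8.18. The groups differed by 0.05 ± 0.11 (SE) (limma adjusted p = 1.00, exact permutation p = 0.708, n = 6 against 6), and by -0.03 without FoxA1 4. With background correction it was 0.09 ± 0.21 (SE), and with median centring 0.09 ± 0.11 (SE).

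STEAP4, a metalloreductase first described in mouse adipocytes as induced by TNF, was the member that the filter on dim probes removed. Its probe ran from 6.93 through 7.28 to 7.58 on the FoxA1 arrays and from 6.95 through 7.17 to 7.25 on the GFP arrays. Although 3 FoxA1 arrays lay above every GFP array, all 12 values lay under the background estimate. The difference in the fit of all probes was 0.10 with a standard error of 0.11 (limma adjusted p = 1.00, exact permutation p = 0.439, n = 6 against 6). A STEAP4 transcript was not detectable at this signal, which does not show that it was absent.

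**Figure D2:**
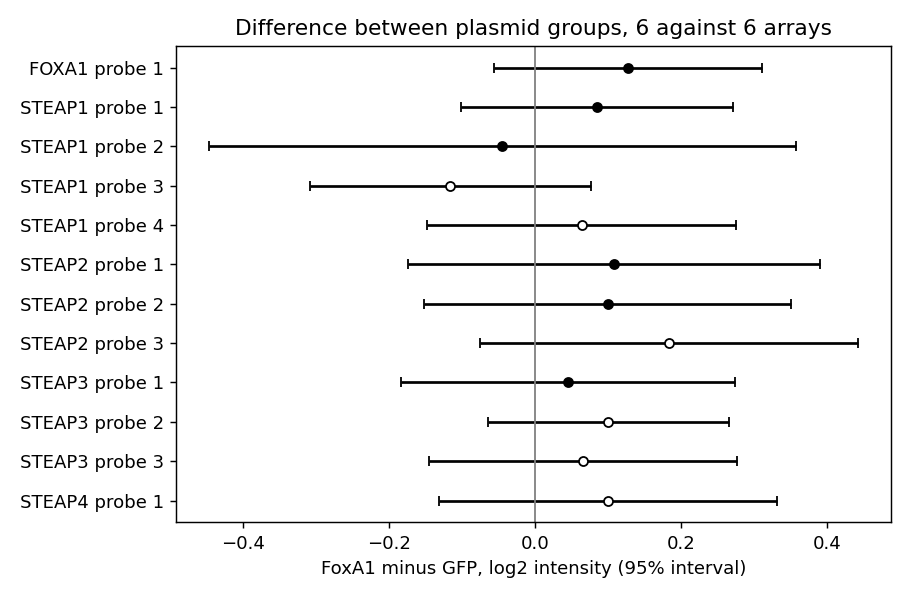
FoxA1 minus GFP difference of log2 intensity (x axis) with its 95% interval in the limma fit of all probes, for FOXA1 and the 11 STEAP probes (y axis); filled points are probes above background on all 12 arrays, open points are the others. Every interval spans 0, and the widest is that of STEAP1 probe 2.

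Set against the whole table, the family's counts were those of a comparison with no calls. Of the 3 members past the filter 0 passed an adjusted p of 0.05 in limma, and so did 0 of the 12420 genes (0%). An unadjusted p under 0.05 was met by 203 genes, 1.63% of those tested, and by 0 of the STEAP genes, and in the fit of all probes 1502 probes, 3.17%, and 0 of the 11 STEAP probes, the lowest p being 0.154. Of the STEAP probes 9 of 11 had a positive difference, with a median of 0.08, beside 50.4% of all probes with a median of 0.000849. Among the 5 STEAP probes above background on all 12 arrays, 4 were positive, with a median of 0.08. The 9 of 11 held under all 4 scalings, with medians from 0.08 to 0.10. With median centring, however, most genes tested were positive as well, 8212 of 12427, beside 6678 of 12420 as deposited. The 11 STEAP probes share 4 genes and 12 arrays, so the 9 are not independent. The groups overlapped for every STEAP probe, as they did for all but 0.0644% of genes.

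The members varied more from array to array than between the plasmids, and not equally. The SD within groups of STEAP2 probe 1 was 0.28, higher than that of 85.2% of the genes tested, that of STEAP3 was 0.21 (65.7th percentile) and that of STEAP1 probe 1 was 0.15 (32.6th percentile). Over the 12 arrays STEAP2 probe 1 spanned 1.98-fold, STEAP3 1.56-fold and STEAP1 probe 1 only 1.403-fold. STEAP1 probe 2 spanned 2.51-fold. The 2 bright STEAP1 probes moved together over the 12 arrays (Pearson's r = 0.81, permutation p = 0.00098, Spearman's rho = 0.85, permutation p = 0.00081; adjusted over 8 relations computed after the data were seen, 0.00784 and 0.00648). The gap between them was not constant: it lay between 0.85 and 1.45 on 11 arrays and was 1.89 on FoxA1 4. The 2 bright STEAP2 probes also moved together (r = 0.74, permutation p = 0.00605, adjusted 0.0242; rho = 0.79, permutation p = 0.0034, adjusted 0.0136). The most extreme arrays of probe 1 were FoxA1 3 and GFP 2 for STEAP2 and FoxA1 2 and GFP 3 for STEAP1. Without them the STEAP2 value fell to r = 0.55 (permutation p = 0.0981), while the STEAP1 value was 0.81 (permutation p = 0.00228). Within the FoxA1 and GFP arrays taken apart, r was 0.92 and 0.88 for the STEAP1 probes and 0.93 and 0.53 for the STEAP2 probes (n = 6 each, exact p = 0.00556, 0.0375, 0.00694 and 0.311).

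By replicate number, STEAP2 had the highest F of the 3 members past the filter (2.93, or 1.42 with median centring) and did not pass the test. Its probe 1 stood highest on arrays numbered 3, at 12.82 (FoxA1 3) and 12.62 (GFP 3), with GFP 1 at 12.65, and lowest on GFP 2, at 11.84, with FoxA1 1 at 12.14 and FoxA1 2 at 12.19. Probe 2 was highest on FoxA1 3, at 12.61, followed by FoxA1 6 at 12.36 and GFP 3 at 12.34, and lowest on the arrays numbered 2, at 11.83 and 11.88. ACTA2, a smooth muscle actin and 1 of the 2 stromal markers above background, was highest on those same arrays numbered 2. It stood there at 10.98 (FoxA1) and 11.12 (GFP), against 9.24 to 10.42 on the others (limma F test of number, adjusted p = 0.000509). VIM, the other of them, was 9.46 (FoxA1) and 9.48 (GFP) there, against 9.16 to 9.77 on the others (limma F test of number, adjusted p = 0.577). Of 8 stromal markers 1 passed that test, and the part of ACTA2 in the STEAP2 levels was not tested. The arrays numbered 1 lay far apart in probe 1, FoxA1 1 at its group's lowest and GFP 1 at its group's highest value. In limma's F test of replicate number beside group, 314 of 12420 genes passed an adjusted p of 0.05 (2.53%; 116 with median centring) and 0 of the 3 STEAP genes did, with adjusted p = 0.921 for STEAP1, 0.332 for STEAP2 (0.865 with median centring) and 0.869 for STEAP3. In the fit of all probes 4 of 11 STEAP probes had an unadjusted p under 0.05, all 3 of STEAP2 and STEAP3 probe 3, beside 9.81% of all probes. Of the 11 probes 0 passed adjustment, beside 0.989% of all probes. STEAP2 probe 3 and STEAP3 probe 3 lay under background on every array.

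**Figure D3:**
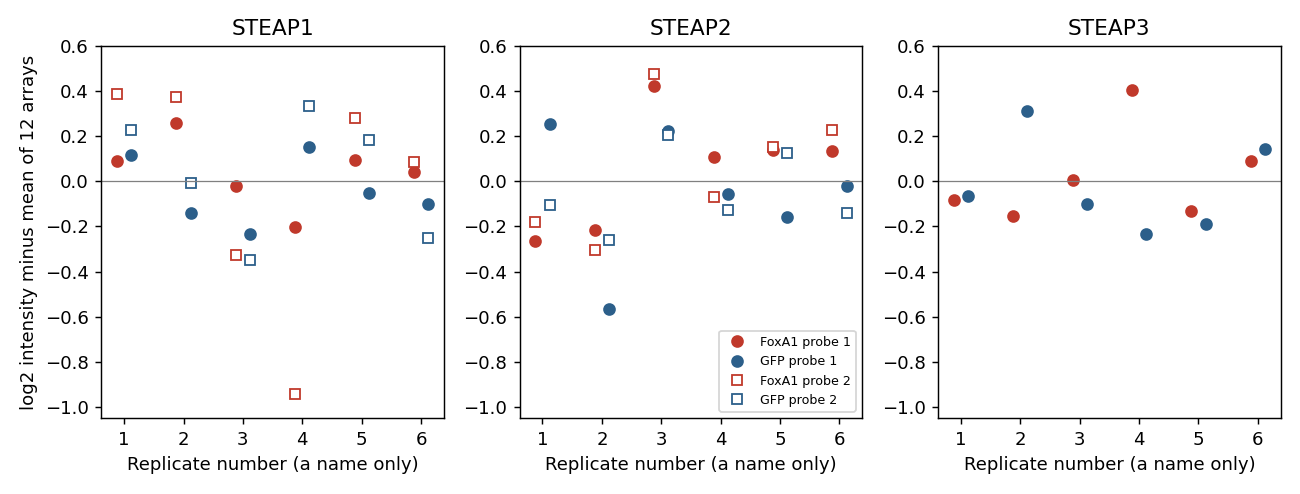
Log2 intensity of the STEAP probes above background on all 12 arrays, minus the probe's mean over the 12 arrays (y axis), by replicate number (x axis, a name with no order); red is FoxA1, blue is GFP, filled circles are probe 1 and open squares probe 2. STEAP2 is high on both arrays numbered 3 and low on both numbered 2, and STEAP1 probe 2 is lowest on FoxA1 4.

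The members did not rise and fall as 1 block. Across the 12 arrays, 10 relations were computed, the 6 pairs of members and each member with FOXA1, and 0 passed after adjustment over the 10. STEAP1 and STEAP2, neighbours on the chromosome, gave r = -0.07 (permutation p = 0.823) and rho = -0.07 (permutation p = 0.835), with r at 0.32 under median centring. STEAP1 and STEAP3 leaned opposite ways without passing (r = -0.62, permutation p = 0.0315, adjusted 0.157; rho = -0.58, permutation p = 0.0517, adjusted 0.426). Their r was -0.90 within the FoxA1 arrays (exact p = 0.00972, n = 6) and -0.47 within the GFP arrays (exact p = 0.319, n = 6), and it was -0.83 without the arrays where STEAP1 was most extreme, FoxA1 2 and GFP 3 (permutation p = 0.00337, adjusted over the same 10 relations 0.0337). That set kept FoxA1 4 and GFP 2, where STEAP3 was highest (8.45 and 8.35) and STEAP1 stood at 12.73 and 12.79. An r without those arrays was not computed, so how far the relation rests on them was not tested. With median centring r of STEAP1 with STEAP3 was -0.37 (permutation p = 0.233, adjusted 0.633).

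STEAP2 had the highest r with FOXA1, 0.70 (permutation p = 0.0131, adjusted 0.131), with a rho of 0.48 (permutation p = 0.12, adjusted 0.426). It rested on 2 arrays: without FoxA1 3, highest in both genes, and GFP 2, lowest in both, r was 0.10 (permutation p = 0.786). Within the FoxA1 arrays it was 0.91 (exact p = 0.0181, n = 6) and within the GFP arrays 0.53 (exact p = 0.29, n = 6). For the other members r with FOXA1 was 0.07 (STEAP1), -0.13 (STEAP3) and -0.37 (STEAP4, under background), with adjusted permutation p of 0.826, 0.826 and 0.807. Within the FoxA1 and GFP arrays r was -0.73 and 0.49 for STEAP1 (n = 6 each, exact p = 0.0972 and 0.331). For STEAP3 it was 0.50 and -0.78 (exact p = 0.333 and 0.0597), and for STEAP4 -0.77 and -0.32 (exact p = 0.0875 and 0.483). Median centring gave r = 0.55 for STEAP1 with FOXA1 (permutation p = 0.0624, adjusted 0.312) and 0.77 for STEAP2 with FOXA1 (permutation p = 0.00567, adjusted 0.0567).

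**Figure D4:**
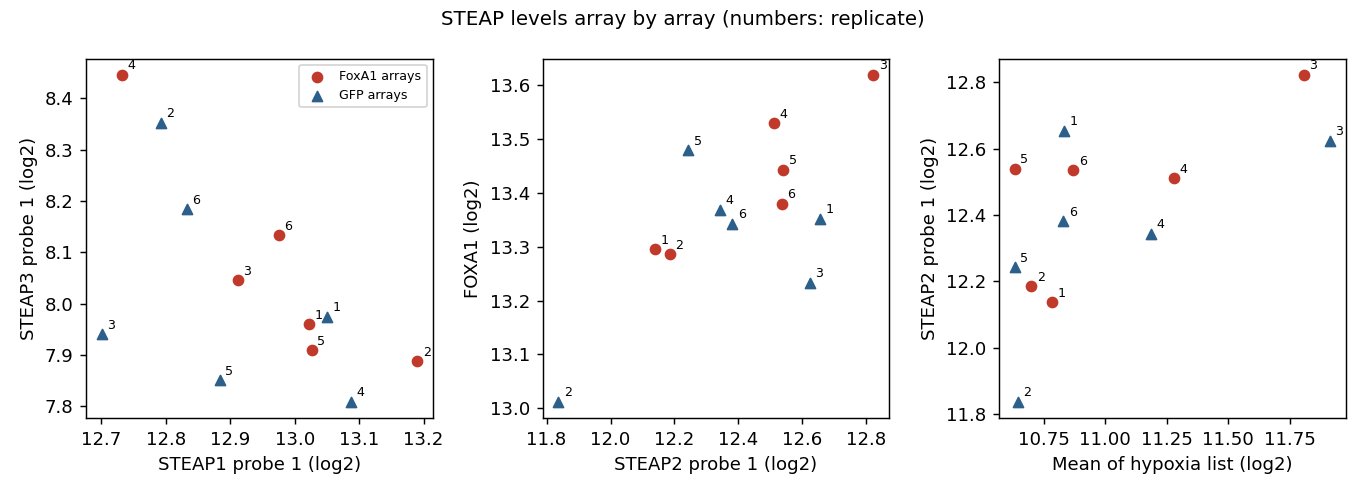
Log2 levels array by array: STEAP3 against STEAP1 (left), FOXA1 against STEAP2 (middle) and STEAP2 against the mean of 17 hypoxia genes (right); red circles are FoxA1 arrays, blue triangles GFP arrays, and the digits are replicate numbers. STEAP3 is high where STEAP1 is low on FoxA1 4 and GFP 2, while GFP 3 is low in both, and FoxA1 3 and GFP 2 lie at opposite ends of the STEAP2 and FOXA1 plot.

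The arrays numbered 3 were also those on which hypoxia genes stood highest, at 0.80 (FoxA1 3) and 0.90 (GFP 3) above the mean of all arrays for the mean of 17 genes, against -0.38 to 0.27 on the other arrays. The hypoxia list was chosen with earlier results of these data known. Of the 17 genes 15 passed the F test of replicate number, 88.2% against 2.53% of all genes. STEAP2 probe 1 followed that mean with r = 0.63 (permutation p = 0.03, adjusted over the 8 added relations 0.0801; rho = 0.55, permutation p = 0.0674, adjusted 0.135), and r was 0.46 without FoxA1 3 and GFP 2 (permutation p = 0.183). STEAP1 probe 2 ran against it with r = -0.59 (permutation p = 0.0433, adjusted 0.0865; rho = -0.56, permutation p = 0.0625, adjusted 0.135), and r was -0.53 without FoxA1 4 and GFP 3 (permutation p = 0.0989). Within the FoxA1 and the GFP arrays r was 0.73 and 0.57 for STEAP2 probe 1 and -0.71 and -0.47 for STEAP1 probe 2 (n = 6 each, exact p = 0.124, 0.261, 0.0903 and 0.369). STEAP2 probe 2 gave r = 0.57 (permutation p = 0.0541, adjusted 0.0865) and rho = 0.45 (permutation p = 0.146, adjusted 0.234). Its r was 0.41 without FoxA1 3 and FoxA1 6 (permutation p = 0.239). STEAP1 probe 1, STEAP3 and STEAP4 gave r of -0.44, 0.03 and -0.14 (permutation p = 0.154, 0.936 and 0.678). The part of whatever moved the hypoxia genes in these levels was not tested.

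The genes whose levels were most like a member's differed from member to member. Over the 12 arrays and 12419 other genes, STEAP1 was most like SLC25A40 (r = 0.95), FBXO3 (0.94) and RB1 (0.94). STEAP2 was most like LINC01089 (0.93), LRATD2 (0.87) and WASH2P (0.87), and STEAP3 was most like BCL9 (0.94), RB1-DT (0.93) and CXXC1 (0.90). STEAP1 probe 2, chosen after its values were seen, was most like ZNF429 (0.97), MOCS2 (0.97) and FNTA (0.96), 3 other genes than those of probe 1. LINC01089, WASH2P, RB1-DT and ZNF429 were dim, with means of 7.79, 7.79, 7.83 and 7.89 beside the background estimate of 7.65. Among so many genes the highest of 12-point correlations are large by selection, so these are descriptions. Without the arrays where the member was most extreme, the values ran from 0.88 to 0.96 for STEAP1 probe 1, from 0.64 to 0.83 for STEAP2 and from 0.72 to 0.80 for STEAP3.

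Genes that handle the metals which STEAP enzymes reduce gave no call either. Of 29 iron genes 21 were measured, and 0 rose and 0 fell in limma at an adjusted p of 0.05. Their differences had a median of 0.06, 16 positive and 5 negative, beside a median of 0.01 over all genes tested with 6678 positive and 5742 negative (0.04, 8212 and 4215 with median centring), and 1 had an unadjusted p under 0.05, FECH with 0.19. FECH, which inserts iron into heme, was named after its value was seen. TFRC, the transferrin receptor through which cells take up iron, had 12.56 ± 0.31 with FoxA1 and 12.54 ± 0.35 with GFP (SD, n = 6 each). SLC11A2, which carries the ferrous iron that endosomal reductases make, had 11.18 ± 0.15 and 11.04 ± 0.14 (SD, n = 6 each), so that it differed by 0.14 ± 0.09 (SE). NCOA4, which delivers ferritin for breakdown, differed by 0.11, and the ferritin light chain FTL by 0.0029. SLC40A1, the iron exporter, was not above background in its mean.

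Of 15 copper genes 14 were measured, and 0 rose and 0 fell in limma, also at an unadjusted p under 0.05. Their median difference was -0.02, with 6 positive and 8 negative, and 0.00518 with median centring. SLC31A1, the importer of the reduced copper that STEAP enzymes produce, had 10.40 ± 0.29 with FoxA1 and 10.34 ± 0.54 with GFP (SD, n = 6 each). The copper chaperone ATOX1 differed by -0.07 with a standard error of 0.09. Of the copper-exporting ATPases, ATP7B differed by 0.11, and ATP7A, not above background in its mean, by 0.14.

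The pathways tied to single members did not move beyond the spread either. Of 25 androgen-induced genes 21 were measured, with 19 differences positive, 2 negative and a median of 0.08, and 0 rose or fell. With median centring 20 were positive, 1 was negative and the median was 0.13, beside 8212 of 12427 genes positive there and 6678 of 12420 as deposited. KLK3 and KLK2, kallikreins of the seminal fluid, differed by 0.04 and 0.05, TMPRSS2, a membrane protease, by 0.20 with a standard error of 0.23, and FKBP5, a receptor co-chaperone, by 0.21 with a standard error of 0.14. Of 20 p53 targets, the set to which STEAP3 is known to belong, 17 were measured, 11 positive and 6 negative with a median of 0.08. Among them MDM2, the ligase that degrades p53, was not above background in its mean (difference 0.18 with a standard error of 0.09), and CDKN1A, an inhibitor of cyclin-dependent kinases, differed by 0.08. Of 16 inflammatory genes only 6 passed the filter on dim probes, 2 positive and 4 negative with a median of -0.03. NFKBIA, the inhibitor of NF-kB, differed by -0.15 with a standard error of 0.18. Of 20 hypoxia genes 17 were measured, 10 positive and 7 negative with a median of 0.02, or -0.00205 with median centring, and PGK1, a glycolytic kinase, differed by -0.02. In each of these 4 lists 0 genes passed in limma, and 0 had an unadjusted p under 0.05.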

How the data were processed

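Biotinylated cRNA from total RNA of 12 LNCaP samples was hybridised to Illumina bead arrays, per the labels' protocols. The authors deposited 2 tables of log2 intensities without detection p-values, 1 non-normalized per its file header (48107 probes) and 1 normalized (47323 probes). In the deposited normalized table the array medians lie between 7.428 and 7.429 and probes keep their order within each array, as quantile normalization gives. Which programs did this is not given in the sources used here. Array medians before normalization ran from 7.31 to 7.63, and the number of arrays limits the precision (median half-width of a 95% interval 0.217 on the log2 scale).

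The normalized table was used as deposited. Probes with missing values (6) were dropped, those whose mean log2 value exceeded the median probe (7.41) were kept, and the brightest of a gene's probes with 1 symbol (30113 probes; 8 had several) stood for it, which left 12420 genes. Of the STEAP probes 7 passed, and of the genes 3. The comparison used limma 3.58.1 under R 4.3.3 (eBayes after lmFit; FoxA1 minus GFP; two-sided; Benjamini-Hochberg over all genes with threshold 0.05) and, for single genes, by exact permutation over 924 arrangements, two-sided, smallest possible p 0.00216. Correlations used 100000 permutations, or all 720 orders within a group, two-sided. The fits were tested on simulated data. Named genes were FOXA1, the members, fixed members of each list and the 3 genes most like each member; those not given are not analysed here. Members and lists were chosen with earlier results of these data known. Alternatives covered normalization, background correction, filter, probe choice, variance trend, array weights, replicate block and single arrays left out; a slide block was not run, since no header names slides.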

Additional observations from a re-analysis of the deposited data

How the results depend on the processing

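In the settings run, 0 of the STEAP genes, 0 of the STEAP probes and 0 of all genes passed an adjusted p of 0.05, and by replicate number 0 of the STEAP genes did. The sign of STEAP2, STEAP4 and FOXA1 was positive in every setting. The other filters, variance trend, replicate block and exact permutation use the same values and could not change these differences. The difference of STEAP1 turned to -0.025 with a mean over its probes, and that of STEAP3 to -0.031 without FoxA1 4. With single arrays left out, STEAP1 ran from 0.04 to 0.13, STEAP2 from 0.006 to 0.17, STEAP3 from -0.031 to 0.11, STEAP4 from 0.03 to 0.16, and STEAP1 probe 2 from -0.13 to 0.14, positive without FoxA1 4 (0.14), FoxA1 3 (0.02) or GFP 4 (0.02). Background correction with normexp gave 0.09 for STEAP1, 0.11 for STEAP2, 0.09 for STEAP3 and 0.18 for STEAP4. Genes past the threshold by replicate number fell from 314 to 116 with median centring. Genes at an unadjusted p under 0.05 between the plasmids, 203 as reported, were 508 without a filter, 79 with a filter at the upper quartile and between 116 (without GFP 2) and 416 (without GFP 6) with single arrays left out.

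Same-numbered arrays did not all deviate together. Across genes, which are not independent replicates, r of deviations from group means ran from -0.27 for number 4 to 0.64 for number 5. Only numbers 3 and 5 were each other's best match, so the numbers are not taken to pair the arrays, and the main fit leaves them out. Still, 314 of 12420 genes passed limma's F test of number at an adjusted p of 0.05. Each number holds 1 array of each group, so a block for the number cannot change a difference, only its standard error. The differences thus stayed at 0.08 for STEAP1, 0.11 for STEAP2, 0.05 for STEAP3, 0.10 for STEAP4 and 0.13 for FOXA1. The standard error went from 0.142 to 0.109 for STEAP2, from 0.110 to 0.0930 for STEAP4 and from 0.0911 to 0.0866 for FOXA1. It went from 0.0925 to 0.0982 for STEAP1 and from 0.114 to 0.116 for STEAP3. With the block 335 genes had an unadjusted limma p under 0.05, and 0 passed adjustment. STEAP2 probe 3, under background on every array, had an unadjusted limma p of 0.0471 there, against 0.154 without the block.

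Among correlations, 0 of 10 passed as reported. Without the 2 arrays farthest from the median of a relation's first-named gene 1 of 10 did, STEAP1 with STEAP3 (-0.83). With the 2 arrays left out STEAP1 with STEAP2 turned to 0.25, and with median centring to 0.32. STEAP2 with STEAP3 turned to 0.31 and 0.058 in these 2 settings, and STEAP3 with FOXA1 to 0.077 in the first. With median centring STEAP1 with FOXA1 went from 0.07 to 0.55 and STEAP1 with STEAP3 from -0.62 to -0.37, and 0 of 10 passed. The cause of these shifts was not tested.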
